A study of Mus musculus with 2 samples.

Results

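New combinations of known splice sites are transcript models whose exon ends were already annotated in the mouse, but whose full chain of introns matched no annotated transcript. The TALON program, whose tags the deposited tables carry, names them NIC. Members were chosen by this tag and by their read counts: a model had to carry the tag NIC and have at least 5 reads in each library, and models were matched between libraries by chromosome, strand and exact intron chain. This selected 587 models in 464 genes, out of 115948 models with reads in either library. Since the tag and the reads chose the members, their number, classes and levels are a description. The libraries were compared by tests at the end, which that minimum of reads limits.

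Precursor RNA is spliced by joining a donor site at the end of an exon to an acceptor site at the start of a later exon. Cells can join them in more than one way, by leaving out an exon, by keeping an intron, by using a neighbouring donor or acceptor, or by starting or ending in another exon. A short-read library shows each junction on its own, whereas a long read shows which junctions occur together on the same RNA, which is what the tag NIC records. The adrenal gland holds a cortex that makes steroid hormones and a medulla of chromaffin cells that make catecholamines.

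Long-read libraries were sequenced from the total RNA of adrenal gland tissue. The mice were untreated males of the strain B6CASTF1/J, F1 hybrids of C57BL/6J and CAST/EiJ, at 4 days of age. The series held 2 libraries of 1 group, biological replicates 2 and 1. The tissue labels name different males for them, whereas the library labels name the same male and the donor identifier is shared. Tests between the libraries therefore compare these libraries with counting error alone, and not animals. Replicate 2 had 810645 reads on mouse chromosomes and replicate 1 had 688260, so 1 read equalled 1.23 CPM (counts scaled to the same total of mouse reads per library) in replicate 2 and 1.45 CPM in replicate 1. All 6 cortex markers had reads in both libraries, with a sum of 31233 CPM in replicate 2 against 45805 in replicate 1, and the sum of the 5 medulla markers was 9258 CPM in replicate 2 against 12468 in replicate 1. All 6 liver markers had reads too, with a sum of 9802 CPM in replicate 2 against 206 in replicate 1. Of 30 listed liver genes 0 had a member.

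The sequences that carry the main kinds of change follow, from the GENCODE release 21 transcripts on mm10, written 5′ to 3′ on the strand of the gene. The first set is shown because shifts of the acceptor by 3 bases were frequent. Capitals mark the 3 bases by which the acceptor used in the member and the one used in the leading known model (the annotated model of the gene with the most reads) differed. The model of Med25 had these bases, while the models of the other 5 genes lacked them.
H2afy (chr13:56096232-56096234, minus strand): gcccggaagtctaagAAGaagcagggagaa
Aes (chr10:81565472-81565474, plus strand): aactccatcatccgaCAGcagctccaggct
Pitrm1 (chr13:6549580-6549582, plus strand): gcggctgagctgcggCAGggtacaccacag
Ecm1 (chr3:95738114-95738116, minus strand): agcacctccatgaagTAGgttatgcagcac
Med25 (chr7:44884248-44884250, minus strand): ggggcgccgtctctgCAGgcaggcactgta
Hgs (chr11:120479087-120479089, plus strand): ggcccctttagtgagCAGtaccagaatggg

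The next set belongs to the 2 most abundant members and to a pair of abundant members with an unannotated join. In Oaz1, capitals mark the 4 bases that the annotation writes as a gap and that the exon of the member runs through. In Cdkn1c, capitals mark the 36 bases between the donor of the leading known model and the donor of the member, which held them, and the next line is the whole 72-base annotated intron that the member read through. For Hnrnpk, the first of the lines shows the end of an exon in the members, with the 16 bases in capitals that follow the nearest annotated donor, and the other shows the same exon joined to the 16-base exon of the annotation. In Sept7, capitals begin at the join of the member.
Oaz1 gap (chr10:80828292-80828295, plus strand): ggcctcggtggtgcTCCTgatgtccctcac
Cdkn1c donors (chr7:143459759-143459794, minus strand): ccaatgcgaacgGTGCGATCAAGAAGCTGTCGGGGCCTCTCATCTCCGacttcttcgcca
Cdkn1c annotated intron (chr7:143460027-143460098, minus strand): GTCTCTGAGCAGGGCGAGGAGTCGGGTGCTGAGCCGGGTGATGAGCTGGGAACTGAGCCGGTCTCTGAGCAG
Hnrnpk members (chr13:58394060-58394075, minus strand): cttatgaaccacagGTTGAGTATCAATAAT
Hnrnpk annotation (chr13:58393853-58393868, minus strand): cttatgaaccacagGGTGGTTCTGGATATG
Sept7 join (intron chr9:25252700-25265393, plus strand): actgcggcaccatggCAACCGAAGAACCTT

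The last set shows whole stretches, all in capitals, that members left out: an exon in Cd47 and in Cyp21a1, and 77 bases at an acceptor in Tsg101. The Tsg101 member was among the 2 of 379 members tested (0.528%) that were called for their share of the gene. Of all tested models that meet the minimum of reads 0.35% were called. Use of the Tsg101 acceptor over all models was not measured.
Cd47 exon (chr16:49869018-49869080, plus strand): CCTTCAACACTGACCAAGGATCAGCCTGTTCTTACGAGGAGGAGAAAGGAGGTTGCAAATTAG
Cyp21a1 exon (chr17:34803348-34803443, minus strand): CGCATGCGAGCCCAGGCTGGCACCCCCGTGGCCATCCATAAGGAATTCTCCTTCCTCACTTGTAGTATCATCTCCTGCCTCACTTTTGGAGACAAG
Tsg101 (chr7:46908992-46909068, minus strand): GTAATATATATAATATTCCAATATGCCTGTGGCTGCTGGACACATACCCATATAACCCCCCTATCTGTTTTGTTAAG

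Most NIC models were rare, and the members are the small part seen repeatedly. Replicate 2 held 17415 NIC models with 37990 reads and replicate 1 held 14118 with 32178 reads, which is 4.69% of mouse reads in replicate 2 and 4.68% in replicate 1. Of these models 74.5% had 1 read in replicate 2 and 73.2% in replicate 1. The same intron chain was tagged NIC in both libraries 4856 times, and 4269 of those chains fell under the minimum. The 587 members took 12138 reads in replicate 2 and 11791 in replicate 1, or 1.92% of the reads with a complete intron chain in replicate 2 and 2.08% in replicate 1. A complete chain here means a model tagged known, NIC or NNC, where NNC is a model with a new splice site.

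Members differed widely in abundance. Their mean level over the libraries had a median of 13.0 CPM and ran from 6.72 to 1846 CPM. The 10 most abundant took 31.5% of member reads in replicate 2 and 32.0% in replicate 1, and 23 members had 50 or more reads in each library. At the other end, 136 members had exactly 5 reads in a library. Among these the most uneven were a Tsg101 model with 26 reads in replicate 2 and 5 in replicate 1 and a Cyp21a1 model with 25 and 5. Just outside the minimum lay 190 models with 4 reads in a library, such as those of Fip1l1 and Nfyb with 13 reads in replicate 2 and 4 in replicate 1 each. Members lay mostly in protein-coding genes (578 of 587), with 382 genes holding a single member and 82 holding more.

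Sorted against the annotated introns of the same gene, the members fell into 4 classes. In 360 models (61.3%, 309 genes) every junction was annotated, but no annotated transcript had them together; 332 of these could be composed of pieces of 2 annotated transcripts and 28 needed 3. In 142 models (24.2%, 103 genes) an exon held a whole annotated intron, the class retained intron. In 62 models (10.6%, 57 genes) an unannotated junction spanned a whole annotated exon, the class exon skip, and 23 models (3.92%, 21 genes) had an unannotated junction of another kind. The new orders took 6111 reads in replicate 2 and 6215 in replicate 1, the retained introns 4682 and 4325, the exon skips 1016 and 904, and the other new junctions 329 and 347. Although the tag stands for known splice sites, 26 members held a site that no annotated transcript in the deposited annotation has: 11 exon skips, 11 other new junctions and 4 retained introns, with 546 reads in replicate 2 and 535 in replicate 1.

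**Figure D1:**
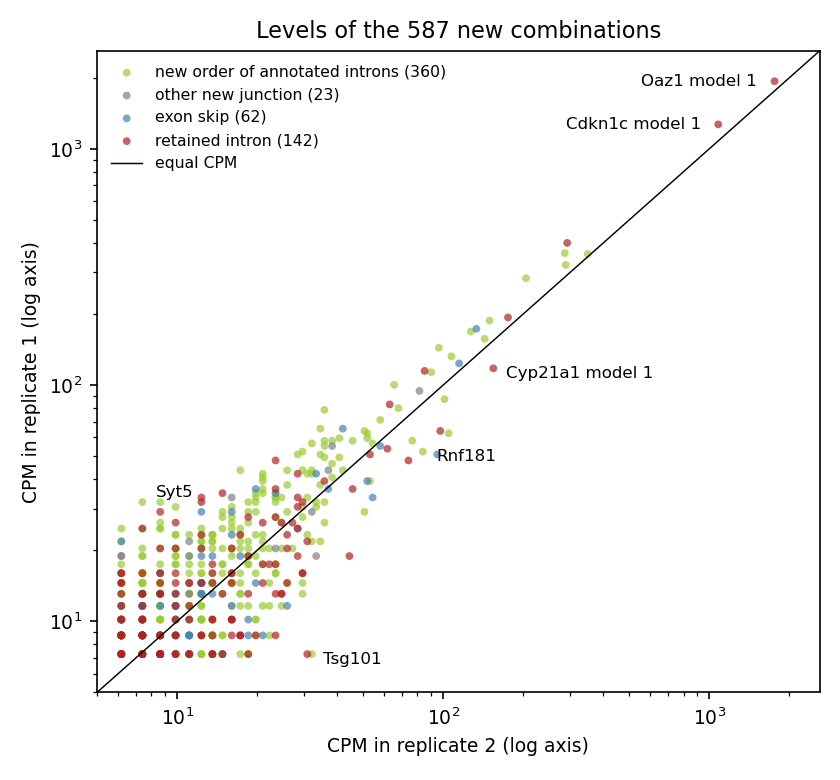
Each point is 1 of the 587 members, with its CPM in replicate 2 on the x axis and in replicate 1 on the y axis, both on log axes, coloured by class, and the line marks equal CPM. Oaz1 model 1 and Cdkn1c model 1 stand above all others, at 1759 and 1081 CPM in replicate 2, while many points lie near the minimum of 5 reads.

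Levels of the members ran in parallel in the libraries, with a Pearson correlation of log2 CPM of 0.836 and a Spearman correlation of 0.639 across the 587 models. These models share the libraries and the minimum of reads, so the values are a description.

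Many members had more reads than the leading known model of their gene. This was so in both libraries for 139 of 587 members, 97 of them new orders, and in 1 library for 57 more. The 139 include the 23 members whose gene had no known model with reads. Other new models of the gene were not part of this comparison. The share of the complete-chain reads of its gene had a median of 13.9% in replicate 2 and 13.3% in replicate 1, and 43 members held over 50% in both libraries. By class, the median share was 17.7% in replicate 2 and 16.7% in replicate 1 for new orders, 11.9% and 11.3% for exon skips, 9.21% and 12.5% for other new junctions, and 7.30% and 7.33% for retained introns.

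The most abundant new orders show what such a model can be. Phb2, a prohibitin of the inner mitochondrial membrane, had 283 reads in replicate 2 and 247 in replicate 1 for its member (354 ± 6.91 CPM, SD, n = 2). That was 94.0% of the gene in replicate 2 (95% Wilson interval 90.7% to 96.2%) and 97.2% in replicate 1 (94.4% to 98.7%), and its leading known model had 1 read in replicate 2 and 0 in replicate 1. The Ctbp1 member, from a gene for a transcriptional corepressor, had 234 reads in replicate 2 and 222 in replicate 1, or 68.2% and 64.3% of the gene. It included a 193-base exon that the leading known model (46 reads in replicate 2 and 54 in replicate 1) left out. Both members thus exceeded the known form of their gene in both libraries.

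Ptov1 model 1 removed a 184-base intron from an exon of the leading known model and had 232 reads in replicate 2 and 249 in replicate 1, against 141 and 150 reads of that model. Cyb561 makes the membrane electron carrier that regenerates ascorbate in chromaffin granules. Its model 1 differed by its first exon and held 52.2% of the gene in replicate 2 (166 reads) and 57.2% in replicate 1 (195 reads), against 62 and 47 reads of the leading known model. Csnk1g2, a casein kinase gene, had 121 reads in replicate 2 and 129 in replicate 1 for a model that removed an 81-base intron, 76.1% and 78.7% of the gene. In these 3 genes the member was the major form in each library, and the intervals of its share overlapped between the libraries.

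Cd47, a surface protein that restrains engulfment by macrophages, had a member without the 63-base exon printed above. It had 116 reads in replicate 2 and 108 in replicate 1, or 55.5% and 56.3% of the gene, against 33 and 46 reads of the leading known model. Cops7a model 1, from a gene for a subunit of the COP9 signalosome, used an acceptor 865 bases from that of the leading known model and had 103 reads in replicate 2 and 116 in replicate 1. Coro1b model 1, from an actin-binding coronin gene, used a donor 7 bases away and had 78 reads in replicate 2 and 99 in replicate 1.

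Set against the leading known model of the same gene, members mostly changed in a single place: 530 of 587 (90.3%) differed at 1 place and 55 at 2. An acceptor was changed in 114 members, an intron was kept in 85, a donor was changed in 83, an exon was left out in 75 and added in 58, and the first exon differed in 57. For 23 members the gene had no known model with reads. Compared with the nearest of all annotated transcripts, whether or not it had reads, 559 members (95.2%) differed at 1 place.

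**Figure D2:**
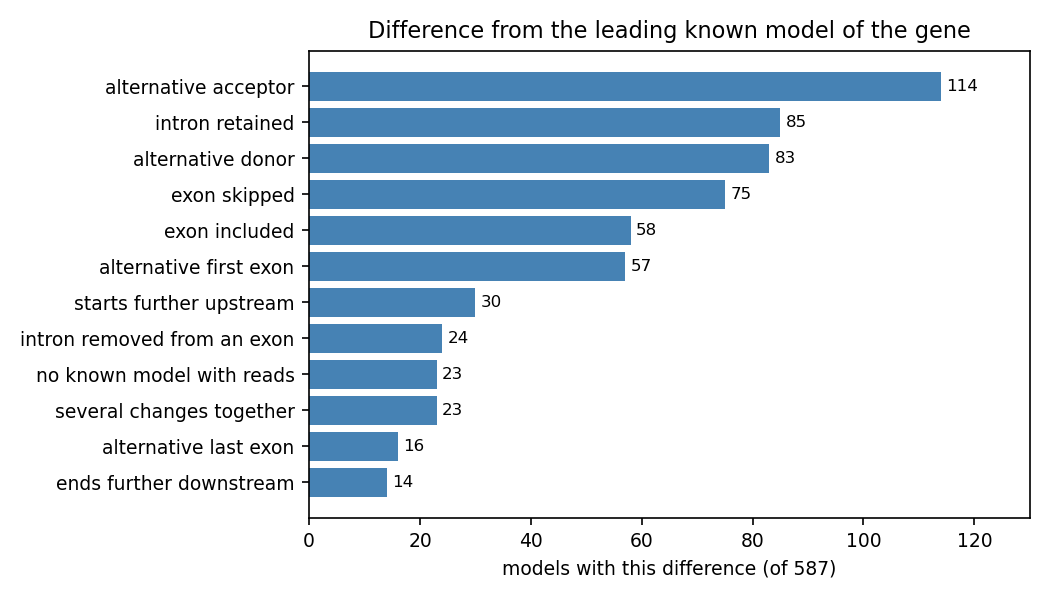
Bars give the number of members, of 587, with each kind of difference from the leading known model of their gene, for kinds with at least 10 members, and a member with 2 kinds is counted in each. Changed acceptors lead with 114 members, followed by 85 kept introns and 83 changed donors.

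The other known models of the same genes changed in like ways. Of 179 such models with at least 5 reads in each library, 23.5% changed an acceptor against the leading model (20.2% of the 564 members with a known model to compare), 17.3% changed a donor (14.7% of members), 10.1% kept an intron (15.1%), 10.1% left out an exon (13.3%) and 11.7% added one (10.3%). No test was made of these shares, since models of a gene share its reads.

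Acceptor changes were small. Over 117 places the median size was 5 bases (3 to 1142), and 49 places (41.9%) in 46 genes differed by exactly 3 bases, the distance shown in the first set of sequences. In the other known models of these genes 26 of 46 acceptor places (56.5%) were of 3 bases. Of the 48 places whose 3 bases could be read from annotated exons, 39 read CAG, 5 read AAG, 4 read TAG and 0 read GAG; all end in AG, as a canonical acceptor does. Among the 49, 30 members lacked the 3 bases that the leading known model had and 19 held bases that it lacked. Donor changes were larger, with a median of 48 bases over 84 places and 1 place of 3 bases.

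The 6 most abundant of these 3-base members were in genes of unlike functions. H2afy, which encodes the histone variant macroH2A1, had 41 reads in replicate 2 and 44 in replicate 1 for the model without AAG, 26.6% and 26.5% of the gene. Pitrm1, a peptidase of the mitochondrial matrix, had 29 and 38 reads, 46.0% and 55.1%. Hgs, which sorts ubiquitinated cargo on endosomes, had 30 reads in each library, 75.0% in replicate 2 and 61.2% in replicate 1. Its junction as a whole was unannotated, so it stands among the other new junctions.

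In the other 3 genes the member held a smaller share of its gene. These shares are of the whole model, and use of the acceptor over all models was not measured. Aes, a corepressor gene, had 44 reads in replicate 2 and 39 in replicate 1, 7.00% and 6.61% of the gene. Ecm1, an extracellular matrix protein, had 26 and 39 reads, 12.1% in replicate 2 and 18.4% in replicate 1. Med25, a subunit of the Mediator complex, had 28 and 35 reads, 14.1% and 15.4%. For all 6 genes the 95% intervals of the share overlapped between the libraries.

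The retained intron class holds 3 different things. In 6 members of 3 genes the only annotated intron read through was a gap of under 30 bases. In 42 members (32 genes) the intron was not spliced in the leading known model either, and in 94 members (69 genes) the leading known model removed it. Any member whose gene had no known model with reads was counted with the 42. The 6 members with gaps took 1764 reads in replicate 2 and 1684 in replicate 1, more than the 94 with an intron kept against the leading model (1506 and 1233 reads).

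Oaz1 and Oaz2 encode antizymes, inhibitors of ornithine decarboxylase whose synthesis needs a programmed shift of reading frame by the ribosome, and the annotation writes a gap of 4 or of 1 base in their coding exons. Oaz1 model 1 had 1426 reads in replicate 2 and 1330 in replicate 1 (1846 ± 123 CPM), 95.3% of the gene in replicate 2 and 96.4% in replicate 1, and Oaz2 model 1 had 237 and 275 reads, 89.8% and 92.3%. All 1515 reads in replicate 2 and all 1392 in replicate 1 that covered the Oaz1 gap were in models whose exon ran through it. Nadk2, the mitochondrial NAD kinase, had a like gap, run through in the models of all 83 and 77 reads. Its member had 43 reads in replicate 2 and 35 in replicate 1. All 11 gaps under 30 bases with 50 or more such reads per library were run through in 100% of reads in both. The models give coordinates and not letters, and whether a model could show so short a gap was not tested.

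Cdkn1c, an imprinted gene for an inhibitor of cyclin-dependent kinases, had 7 members with 1090 reads in replicate 2 and 1071 in replicate 1. Model 1 (876 reads in replicate 2 and 873 in replicate 1, 1175 ± 133 CPM) held 31.8% of the gene in replicate 2 (30.1% to 33.6%) and 30.8% in replicate 1 (29.1% to 32.5%), beside 707 and 830 reads of the leading known model. It was sorted as retained intron because an exon of it held the 72-base annotated intron printed above. That intron was read through in 2721 of 2729 reads in replicate 2 (99.7%) and in 2822 of 2828 in replicate 1 (99.8%). These totals hold only reads that kept the intron or spliced out exactly it. What set the member apart from the leading known model was the donor 36 bases further downstream. Model 2, which differed by the ends of an exon, had 142 reads in replicate 2 and 133 in replicate 1. The annotated intron begins and ends with the same 12 bases, GTCTCTGAGCAG.

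Over all retained intron members, 189 annotated introns of 30 bases or more in 100 genes were read through, with a median length of 280 bases (50 to 3312). The annotated introns of all genes with members had a median of 986.5 bases (n = 7734). Of the retained introns 39.2% were under 200 bases, against 17.7% of the annotated ones. In 120 of the members an intron lay in an internal exon, in 13 in the last exon and in 10 in the first exon.

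How often each of these introns was kept was measured over all models of the gene, as the share of reads holding the intron among those holding it or splicing it out. Only the exact annotated intron counted as spliced out, so reads that removed its bases within an overlapping intron were left out. Of 111 introns covered by 50 or more such reads per library, the median share was 21.7% in replicate 2 and 19.3% in replicate 1, and 95% intervals overlapped between the libraries for 99. Restricted to models with a complete chain, where 100 introns could be measured, the median was 15.4% in replicate 2 and 13.96% in replicate 1. In that measure 37 introns were kept in under 10% of reads in both libraries, 31 in 10% to 50% and 22 in over 50%.

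Of the 111 introns with 50 or more such reads per library, 13 in 11 genes were spliced out exactly in no read of either library. Among them were 207 bases of Maged2, a MAGE family gene (471 reads in replicate 2 and 538 in replicate 1). Others were 56 bases of the orphan nuclear receptor gene Nr2f6 (295 and 317 reads) and 3 overlapping introns of Rsrp1. Rsrp1 encodes an arginine- and serine-rich protein and had 351 such reads in replicate 2 and at least 454 in replicate 1. The same was found for 98 bases of the Wnt signal transducer gene Dvl1 (91 and 72 reads) and 92 bases of the cilia gene Cfap20 (123 and 96 reads). It was also found for a 737-base intron of the RNA helicase gene Ddx5 (104 and 97 reads). These Ddx5 bases also lie in a 1265-base annotated intron, which was spliced out in 353 of 451 reads in replicate 2 and 371 of 467 in replicate 1. A member in such a gene can be a minor form set apart from the leading known model at another place: Maged2 model 1, with 14 reads in replicate 2 and 16 in replicate 1 (3.41% and 3.60% of the gene), had another first exon.

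Exon skips concerned 59 junctions in 57 genes. Of 28 with at least 50 informative reads in each library, the median share of reads with the skip was 9.51% in replicate 2 and 9.21% in replicate 1, the intervals overlapped for 27, and 14 lay under 10% in both libraries. At the other end, 5 junctions took over 50%, and each of these spanned an annotated exon of at most 20 bases.

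These 5 were found in nearly all reads that held the junction or an annotated alternative sharing an end with it. Pitpnb, a carrier of phosphatidylinositol between membranes, had the junction in all 77 reads of replicate 2 and all 57 of replicate 1. Sept7, a septin of the cytoskeleton, had it in all 100 and 88 reads, and its member took 90.3% of the gene in replicate 2 and 85.9% in replicate 1 (93 and 85 reads). Suds3, of the Sin3 corepressor complex, had it in all 81 reads in replicate 2 and all 136 in replicate 1. Both ends of the Suds3 junction were unannotated, so no annotated junction sharing an end could count against it. In Hnrnpk, Pitpnb and Atp2a1 an end of the junction was unannotated, so only annotated junctions sharing the other end could count against it. The 20-base Suds3 exon was held by 2 reads in replicate 2 and 0 in replicate 1. Hnrnpk, an RNA-binding protein gene with 4 members, had it in 392 of 393 reads in replicate 2 and 386 of 387 in replicate 1. Atp2a1, the calcium pump of fast muscle, had it in 200 of 202 reads in replicate 2 and 100 of 100 in replicate 1. The Atp2a1 member itself had 77 reads in replicate 2 and 35 in replicate 1, and Hnrnpk model 2 had 47 and 38.

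Small annotated exons were absent from members beyond the class of exon skips. In all, 17 members of 14 genes left out an exon of at most 20 bases that the nearest annotated coding transcript has, with 867 reads in replicate 2 and 764 in replicate 1, and 5 of the 43 members over 50% of their gene were among them. For 11 of the 14 exons no model with reads held the exon in either library. The 6-base exon of Phb2 was found in 0 reads and spanned by 314 in replicate 2 and 260 in replicate 1. Counting error alone would allow a share of up to 0.955% in replicate 2 and 1.15% in replicate 1. Such limits do not bound the use of the exon in the RNA, since whether reads can be placed on so short an exon was not tested. The 16-base exon of Hnrnpk was likewise found in 0 reads and spanned by 419 and 402 (up to 0.716% and 0.746%), and the 5-base exon of Sept7 by 104 and 98 (up to 2.88% and 3.06%).

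The same held for the 12-base exon of the ubiquitin hydrolase gene Uchl3, spanned by 57 reads in replicate 2 and 55 in replicate 1, the 7-base exon of the fast muscle troponin gene Tnni2 (59 and 29 reads) and the 12-base exon of the citrate cycle gene Idh3g (196 and 158 reads). The exons with reads were those of Dnm2, a dynamin (12 bases, 41 reads with it and 52 that spanned its place without it in replicate 2, 42 with and 44 without in replicate 1), of the mitochondrial ribosome gene Mrpl33 (19 bases, 19 and 12 reads) and of Suds3 (20 bases, 2 and 0 reads). Outside Dnm2, these exons were thus absent from the models of most or all reads that covered their place. Whether the reads held the letters of these exons was not analysed.

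This went beyond the genes with members. In 2440 genes with at least 50 complete-chain reads in each library, 0 of 21 annotated internal coding-transcript exons of 1 to 10 bases had reads in both libraries. For exons of 11 to 20 bases 11 of 55 did (20%), for those of 21 to 30 bases 108 of 146 (74.0%), for those of 31 to 50 bases 639 of 729 (87.7%) and for those of 51 to 100 bases 5519 of 5822 (94.8%). Exon length and the presence of the exon in models thus moved together across all genes, and the part of this in the exon skips of the members was not tested.

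**Figure D3:**
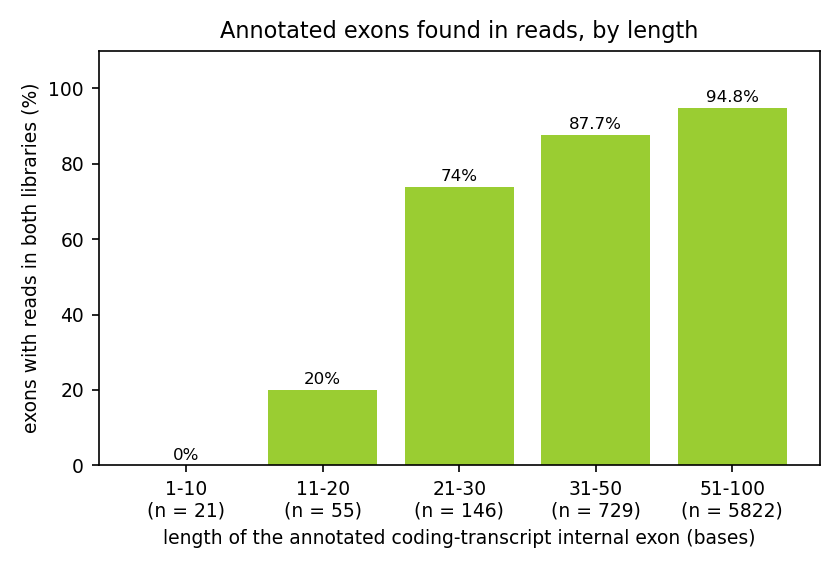
Bars give, for annotated internal exons of protein-coding transcripts sorted by length in bases, the percent of exons that are part of at least 1 model with reads in both libraries, with the number of exons under each bar. The percent is 0 for exons of 1 to 10 bases and 94.8 for exons of 51 to 100 bases.

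Some unannotated joins stood beside these exons. The 26 members with an unannotated site had 23 such joins, of which 8 lay within 10 bases of an annotated site and 6 crossed an exon of at most 20 bases. In 3 of those 6 the exons beside the join were longer by exactly the length of the missing exon, 16 bases in Hnrnpk, 8 in Pitpnb and 20 in Suds3. In Hnrnpk, whose model 1 had 108 reads in replicate 2 and 119 in replicate 1, the 16 bases in the member and the 16 of the annotated exon, both printed above, differ at 8 positions. The deposited models give coordinates and not the letters of the reads, so which letters the reads held was not analysed here.

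Other new junctions were few. Smdt1, a regulator of the mitochondrial calcium uniporter, had 66 reads in replicate 2 and 65 in replicate 1 for an acceptor 7 bases away, 39.1% and 47.8% of the gene. Ing4, a chromatin reader gene, had 31 and 38 reads for model 1, with a donor and an acceptor both moved, 29.0% in replicate 2 and 28.8% in replicate 1. Diablo, an antagonist of apoptosis inhibitors, had 27 reads in replicate 2 and 13 in replicate 1, Trp53i11 had 13 and 23, the exoribonuclease gene Eri3 had 19 and 14, and Cdkn1c model 3 had 26 and 20.

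In the genes of steroid synthesis, members lay in 4 cytochrome P450 enzymes and an electron carrier, and most kept an intron. Of 16 listed genes 5 had a member, 28 in all, of which 19 kept an intron, 4 skipped an exon and 5 were new orders. They took 4.75% of the complete-chain reads of the list in replicate 2 and 2.82% in replicate 1. Cyp21a1, steroid 21-hydroxylase, had 19 members, the most of any gene, with 539 reads in replicate 2 and 432 in replicate 1. Since this gene has a near-identical pseudogene copy, its counts are uncertain, and its members share the same few introns.

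The 5 steroid members with the highest mean CPM each kept 1 or more introns. Cyp21a1 model 1, which kept a 68-base intron, had 125 reads in replicate 2 and 81 in replicate 1 (136 ± 25.8 CPM), 1.76% and 0.705% of the gene. Model 2, which kept 3 annotated introns that partly overlap, had 79 and 44 reads, and model 3, with a 113-base intron, had 51 and 57. Cyp11a1, the side-chain cleavage enzyme that turns cholesterol into pregnenolone, had 5 members, led by model 1 with a 478-base intron (69 reads in replicate 2 and 79 in replicate 1, 1.79% and 1.92% of the gene) and model 2 with a 283-base and a 478-base intron (60 and 33 reads). Cyp11b1, the 11β-hydroxylase that makes corticosterone, had 1 member with 3 introns kept and 24 reads in replicate 2 against 11 in replicate 1. In share of their gene all of these were minor forms.

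The other 3 Cyp11a1 members and the other 16 of Cyp21a1 ranged from 5 to 42 reads in replicate 2 and from 5 to 45 in replicate 1. Cyp21a1 model 4 skipped 90 bases of exon and model 5 skipped the 96-base exon printed above. The junction that skips the 96-base exon was found in 48 of 7024 reads in replicate 2 (0.683%) and 30 of 11874 in replicate 1 (0.253%). Cyp11b2, aldosterone synthase, had a member without a 204-base exon (chr15:74853464-74853667), with 14 reads in replicate 2 and 13 in replicate 1; its junction was found in 17 of 248 reads in replicate 2 (6.85%, interval 4.32% to 10.7%) and 19 of 504 in replicate 1 (3.77%, 2.43% to 5.81%). Fdxr, which passes electrons to the mitochondrial steroid enzymes, had model 1 with an acceptor 54 bases away (29 and 40 reads, 7.86% and 8.46% of the gene) and model 2 with one 24 bases away (8 and 7 reads).

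Introns of the steroid enzymes mostly had the higher share kept in replicate 2. In complete-chain models, all 14 introns of these genes with at least 50 informative reads had the higher share in replicate 2. Over all models 13 of the 14 did, and the 64-base intron of Cyp21a1 went the other way, kept in 4.97% of reads in replicate 2 and 5.22% in replicate 1. The 14 include a 50-base and a 91-base annotated intron of Cyp21a1 that few complete-chain reads spliced out exactly. The 50-base intron was kept in 93.1% in replicate 2 and 88.6% in replicate 1, and the 91-base intron in 89.3% and 80.8%. Of 86 introns in other genes, in complete-chain models, 46 were higher, 11 equal and 29 lower in replicate 2, with medians of 25.6% in replicate 2 and 18.2% in replicate 1. These other genes include the pseudogene Cyp21a2-ps, so they are not all separate from Cyp21a1. Its 114-base intron was kept in 35.6% in replicate 2 and 25.9% in replicate 1, and its 68-base intron in 29.9% and 21.5%. In Cyp21a1 the 105-base intron was kept in 7.86% of reads in replicate 2 and 1.92% in replicate 1, the 86-base intron in 4.996% and 2.04%, and the 68-base intron in 5.06% and 2.48%. In Cyp11b1 the 259-base intron was kept in 2.07% in replicate 2 and 0.435% in replicate 1. The 478-base intron of Cyp11a1 was kept in 4.62% in replicate 2 and 3.19% in replicate 1, and its 899-base intron in 1.31% and 0.464%. These introns lie in few genes and often on the same reads, so they are not 14 independent measurements. Beside this, the summed cortex markers were lower and the liver markers higher in replicate 2, in the amounts given above, and in bulk tissue fewer cells of a type and less RNA per cell cannot be told apart. The part of these in the kept introns was not tested.

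**Figure D4:**
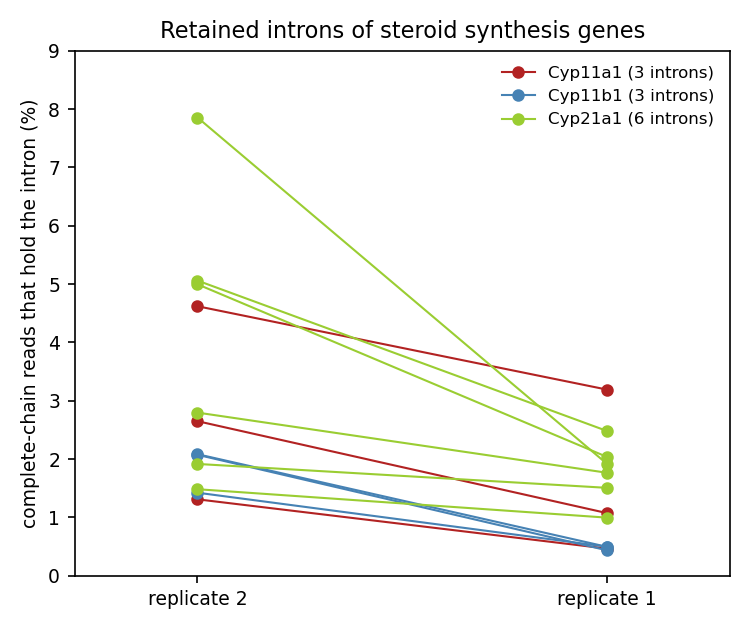
Each line joins the share of complete-chain reads that hold 1 annotated intron, in percent, in replicate 2 (left) and replicate 1 (right), for the 12 introns of Cyp11a1, Cyp11b1 and Cyp21a1 kept in under 50% of reads. Every line is higher in replicate 2 in this measure, the steepest being the 105-base intron of Cyp21a1 at 7.86% and 1.92%. The 50-base and 91-base introns of Cyp21a1, kept in over 50% of reads, are left out.

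The share of the 478-base Cyp11a1 intron rested on which models were counted. Over all models, with incomplete and genomic ones included, 53.8% of reads held it in replicate 2 and 42.7% in replicate 1, against the 4.62% and 3.19% above.

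Members also lay in other gene lists. Of 43 splicing regulator genes, which include SR proteins and heterogeneous nuclear ribonucleoproteins, 12 had a member, 22 in all, of which 9 kept an intron. Many genes of this family are known to keep introns or poison exons in their own transcripts. Srsf5 model 1 kept a 1229-base intron in 23 reads in replicate 2 and 21 in replicate 1 (11.98% and 16.4% of the gene), and Srsf4 had a member with an added 565-base exon in 27 reads in replicate 2 and 21 in replicate 1 (29.7% and 20.0%). Srsf1 model 1 had 8 and 18 reads and model 2 had 13 and 10.

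Of 18 chromaffin genes only Cyb561 had members, 3 in all, which with model 1 described above include model 2 with an added 279-base exon (26 reads in replicate 2 and 30 in replicate 1) and model 3 (6 and 9 reads). Of 19 imprinted genes, Cdkn1c, Gnas and Meg3 had 11 members, which took 19.5% of the complete-chain reads of the list in replicate 2 and 19.6% in replicate 1. Respiratory chain genes had 4 members in 3 of 73 genes, led by Ndufs1 model 1 of complex I with 31 and 32 reads, and cytosolic ribosomal protein genes had 2 members in 2 of 79 genes.

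The coding effect was read on the annotated transcripts, by starting at the annotated start codon of the leading known coding model and reading the spliced exons of the member to the first stop. This was possible for 469 members. Of these 143 (30.5%) gave the same protein, and 134 (28.6%) ended at the same stop with another length, 82 shorter and 52 longer, with a median change of 12 residues and 31 changed by 1 residue. In 133 (28.4%) the reading ended at another stop more than 50 bases before the last junction, a position that is known to mark RNAs for nonsense-mediated decay, and in 55 (11.7%) at another stop that was not.

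Among members that could be read, such early stops had the largest share in the retained intron class. They were met in 69 of 99 readable retained intron members (69.7%), out of 142 in the class, and in 9 of 41 exon skips (22.0%), 3 of 19 other new junctions (15.8%) and 52 of 310 new orders (16.8%), beside 27 of 151 other known models of the same genes (17.9%). Of the 142, 21 could not be read because bases lay in no annotated exon, against 1 of 360 new orders. A further 7 lacked the start codon and 15 had no known coding model with reads. The classes were thus not readable in equal part. The same protein was read from 18.2% of retained introns, 29.3% of exon skips, 26.3% of other new junctions and 34.8% of new orders, beside 34.4% of other known models. Of the retained introns themselves 56 of 189 (29.6%) had a length that is a multiple of 3, close to the 32.6% of all annotated introns of these genes. Members of 1 gene share its exons, so these shares were not tested.

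**Figure D5:**
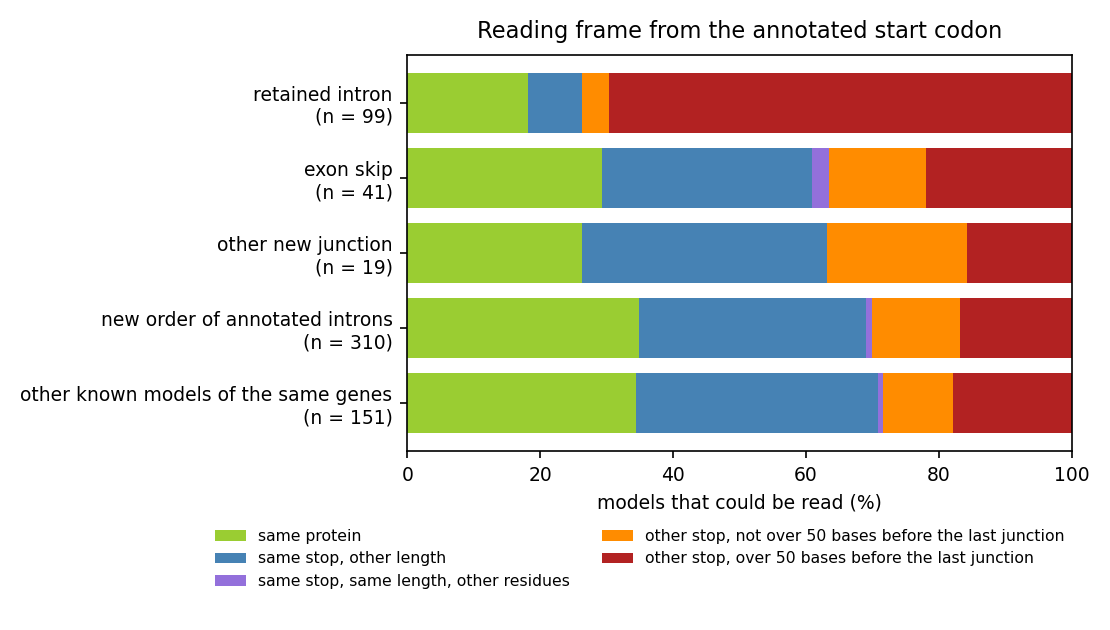
Stacked bars give, for each class of members and for the other known models of the same genes, the percent of readable models by the outcome of reading from the annotated start codon. Stops more than 50 bases before the last junction make up 69.7% of readable retained introns and 16.8% to 22.0% of new orders and exon skips.

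Several members with an early stop from that start codon held a whole annotated protein of their gene. This was so for 38 of the 133, where the early-stopped reading itself could be that protein. When each annotated start codon was tried, 242 of 577 members (41.9%) held a whole annotated protein of their gene. Annotated proteins of any length counted. Of the other known models of the same genes, which are annotated themselves, 148 of 181 (81.8%) held one. From the start of Ctbp1-201 (441 residues) the Ctbp1 member read only 16 residues, but it held the whole 367 residues of Ctbp1-206. Ptov1 model 1, Cyb561 model 1 and Coro1b model 1 gave the same protein as the leading known coding model. Csnk1g2 gave 415 residues in place of 442, which is the annotated Csnk1g2-202.

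Others changed the protein in frame. Cdkn1c model 1 gave 347 residues, 12 more than the 335 of the leading known model, and Cd47 model 1 gave 303 in place of 324. Without their exon, Cyp21a1 model 5 gave 455 residues and model 4 gave 457 in place of 487, and the Cyp11b2 member gave 434 in place of 502. Cyp21a1 model 1, with the 68-base intron, stopped after 364 residues. The 3-base models of H2afy, Aes, Pitrm1, Ecm1 and Hgs were each 1 residue shorter, with 368 residues in H2afy, 196 in Aes, 1035 in Pitrm1, 558 in Ecm1 and 775 in Hgs.

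Members were compared in level between the libraries. Each model was compared with the rest of the mouse reads by Fisher's exact test (two-sided). The 7352 complete-chain models with 20 or more reads over both libraries were tested, with Benjamini-Hochberg adjustment over all of them. A call needed an adjusted p below 0.05 and, with 0.5 CPM added, a log2 ratio of CPM that was 1 or more in size. Of all models tested 4.42% were called, and of the 295 members tested 9 (3.05%), 2 higher and 7 lower in replicate 2. The members had been chosen for 5 or more reads in each library, which leaves out the most uneven models and which the other models did not have to meet. Among the 7231 tested models that meet it, a limit added after the data were seen, 2.96% were called, a share near that of the members, so nothing is read from either about the members. The median log2 ratio was −0.23 over the members and −0.20 over all models, a shift that TMM and DESeq2 scaling remove; with either, 5 members were called, 4 higher and 1 lower, of which 3 were among the 9.

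The called members had few reads. A Tsg101 member, from a gene of the endosomal sorting complex, had 26 reads in replicate 2 and 5 in replicate 1 (log2 ratio 2.07, Fisher's exact test, adjusted p = 0.0140). Cyp21a1 model 11, with 2 introns kept, had 25 and 5 reads (2.01, exact adjusted p = 0.0206). Lower in replicate 2 were Syt5, a synaptotagmin of vesicle release, with 6 reads against 22 (−2.04, exact adjusted p = 0.00911), Tango2 with 5 against 17 (−1.92), Cyp21a1 model 9 with 7 against 22 (−1.83), Fkbp8 model 2 with 7 against 20 (−1.69), and Smarca1 with 8 against 21 (−1.58). Klhl22 had 14 reads in replicate 2 against 30 in replicate 1 (−1.31), and Pacsin3 model 1 had 29 against 54 (−1.12).

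Members were also compared by their share of the gene. The reads of a model were tested against the other complete-chain reads of its gene for 5550 models, where a call needed an adjusted p below 0.05 and 10 points of difference or more. Of all models 0.342% were called and of the 379 members tested 2 (0.528%). The minimum of reads limits this comparison too, and among the 3717 tested models that meet it 0.35% were called. The Tsg101 member, which lacks the 77 bases printed above, had 26 of 146 reads in replicate 2 (17.8%) and 5 of 144 in replicate 1 (3.47%), a difference of 14.3 points (exact adjusted p = 0.0158). Read from the annotated start it gave 66 residues in place of 391, which is the annotated Tsg101-208. The Rnf181 member, from a ubiquitin ligase gene, had 68 of 189 reads in replicate 2 (36.0%) and 36 of 190 in replicate 1 (18.9%), a difference of 17.0 points (exact adjusted p = 0.0325).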

How the data were processed

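The authors deposited raw counts, 1 table per library, giving the long reads of every transcript model found and no model without reads. Per the file headers, models carry TALON tags; per the files' deposited descriptions, they rest on filtered alignments to mm10 with GENCODE release 21. The aligner and tool versions are not given in the sources used. Other deposited values used, coordinates of exons per the file headers, gave intron chains. Members and lists were chosen with earlier results of these data known. CPM used reads on mouse chromosomes, spike-ins left out. With 3 reads as floor, 0 reads allow up to 3.70 CPM in replicate 2 and 4.36 in replicate 1. Intervals are 95% Wilson and, like floors, cover counting error only. Named were the 12 most abundant members, 6 per class, 5 retained introns and 5 skips of highest share, all in steroid and chromaffin genes, called members, and 4 at the minimum; further members of 3-base shifts, small exons and lists were chosen after their values were seen. Tests and classes were checked on simulated data. Tools were Python 3.11.15, scipy 1.17.1, pandas 2.3.3, edgeR 4.0.16 and DESeq2 1.42.0, the last pair for scaling only. Alternatives covered read minimums, scaling, pseudocount, class rules and models counted. A sequence of a member is not reported here. The replicate numbers belong to 1 group, so samples were not paired.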

Additional observations from a re-analysis of the deposited data

How the results depend on the processing

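The members fell to 226 at 10 reads in each library (52 retained introns, 21 exon skips, 8 other new junctions, 145 new orders) and to 83 at 20 reads (17, 9, 4 and 53), and numbered 1121 at 3 reads (281, 138, 45 and 657). Leaving out a replicate gave 955 to 1082 members (retained introns 237 to 270, exon skips 120 to 167, other new junctions 66 to 78, new orders 532 to 567). Counting only introns that the leading known model splices left 94 retained introns. Alternatives chosen after seeing the data gave 12 other new junctions with annotated sites only and 61 with the tag in at least 1 library. Members called in level were 5 with TMM, 5 with DESeq2 size factors, 5 at 10 reads over both libraries and 3 at 40; called in usage without a size threshold, also chosen after seeing the data, were 7, adding Cyp21a1 models. Median shares for retained introns were 15.4% in replicate 2 and 13.96% in replicate 1 with complete chains, and 9.43% and 10% with the member alone; for exon skips 8.77% and 8.13%, and 8.51% and 8.05%. With 2 CPM added the Pearson correlation was 0.848. The cause of these shifts was not tested. Depth limits members near 5 reads, whose shares carry wide counting intervals. No paired analysis was possible because both libraries belong to 1 group.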
